A study of Mus musculus with 6 samples.

Results

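Adipogenic and lipid storage genes are described here in undifferentiated mouse bone marrow stromal clones with and without Dicer, the enzyme that cuts microRNA precursors to their mature form. The set held 10 genes chosen by symbol, the transcription factor genes Cebpa, Cebpb, Cebpd and Zfp423 and the lipid handling genes Fabp4, Lpl, Plin2, Cd36, Cfd and Dgat2. Of these, 9 were found among 18997 genes measured. Cfd, which encodes the secreted protease adipsin, had no transcript cluster under its symbol in the annotation used and was not analysed here. Each gene was read from its brightest transcript cluster (the group of probes that the array assigns to 1 transcript). Lpl had 2 such clusters and each of the other 8 genes had 1.

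The cells came from hindlimb marrow of a single 1-year-old Dicer flox/flox mouse, were made immortal with a retrovirus for SV40 large T antigen, and were cloned by plating at low density. Clones 6 and 12, labelled Dicer+/+, carried Dicer, with the floxed alleles of the mouse. Clones 6.8 and 6.9 (from clone 6) and clones 12.2 and 12.4 (from clone 12), labelled Dicer-/-, had been infected with adenovirus for Cre and GFP, sorted for GFP and cloned again. Each clone gave 1 array of untreated cells in normal culture medium, with no agent that induces fat cells. The arrays hold no Dicer-carrying clone taken through infection, sorting and recloning, so those steps and Dicer loss cannot be told apart. Both sibling null clones of a line share 1 parental array, and nothing says that a clone was cultured more than once. The p-values therefore measure the spread between clones with 1 array each, which includes differences between cultures and arrays. One array has 6.9 in its title but 6.8 in its cell type field. It is taken as 6.9 here, and its values were not those of the other 6.8 array. Over all transcript clusters it was the array least like the rest, with Pearson's r of 0.9187 to 0.9415. Pairs of the other arrays had 0.9384 to 0.9773. Its r with sibling 6.8 was 0.9415, where 6.8 had 0.9672 with 12.2 and 0.9726 with 12.4. Its upper quartile was 5.36, against 4.86 to 5.065 on the other arrays. Why array 6.9 stood apart was not tested.

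Values are the deposited log2 levels, on which 1 unit is a factor of 2. The median over all transcript clusters was 3.01 to 3.21 on the 6 arrays, so a level near 3 is dim, and no detection call was used. Levels of different genes were not set against each other, because probes differ in brightness. Dicer1 read 4.48 and 4.83 in the carrying clones and 4.43 to 4.66 in the null clones. Where its probes lie against the floxed exons was not examined, so these values check no label. Stromal markers were only partly bright: 7 of 10 had a mean above 4, among them Pdgfrb and Itgb1, while Thy1 and Lepr stayed at or below 3.06 on every array. Osteoblast markers were bright in the carrying clones, with a mean over 6 genes of 10.2 on both arrays, and lay at 5.12 to 7.95 in the null clones. Macrophage and endothelial markers, whose cells also express Cd36, Fabp4 or Lpl, were dim. Of 8 macrophage markers 1, Cd14, had a mean above 4, at 4.14, and of 8 endothelial markers 0 did, the highest being Egfl7.

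Fat cells arise from marrow stromal cells through a cascade in which C/EBP-beta and C/EBP-delta act early and switch on C/EBP-alpha and PPAR-gamma, which hold the fat cell program in place. Zfp423 and Ebf1 act ahead of this cascade and mark cells committed to it. Lipoprotein lipase and CD36 then bring in fatty acids, FABP4 carries them, DGAT2 joins the last fatty acid to make triglyceride, and perilipin 2 coats the droplets in which triglyceride is stored. Osteoblasts come from the same stromal cells.

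Cebpa, whose product is the late C/EBP factor of the cascade, varied more over the arrays than any other gene of the set. The stretch of 250 bases ahead of its transcription start is shown beside that of Adipoq, the adiponectin gene, because both genes had their highest transcript levels in clones 6 and 12.4 (values further on). Both stretches are RefSeq sequence of GRCm38.p6 on the plus strand, Cebpa at chr7:35119043-35119292 and Adipoq at chr16:23146286-23146535. Capitals mark a TATA box, TATAAA, which begins at -30 counted from the start of Cebpa.
Cebpa: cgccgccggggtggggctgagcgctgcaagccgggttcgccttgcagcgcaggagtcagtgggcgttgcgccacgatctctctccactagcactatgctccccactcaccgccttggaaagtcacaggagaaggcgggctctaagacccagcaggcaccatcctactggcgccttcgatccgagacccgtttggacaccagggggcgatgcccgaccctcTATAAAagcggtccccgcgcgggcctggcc
Adipoq: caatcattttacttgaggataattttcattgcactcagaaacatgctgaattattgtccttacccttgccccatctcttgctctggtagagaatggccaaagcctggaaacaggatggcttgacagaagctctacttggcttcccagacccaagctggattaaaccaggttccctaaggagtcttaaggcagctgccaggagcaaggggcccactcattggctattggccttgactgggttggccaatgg
Besides TATAAA, exact matches were sought on both strands for a C/EBP motif (TTGCNNAA) and an E-box (CACGTG) as well, and no matches of different motifs overlapped. Among 32851 windows of this length in the promoter table, 12.4% held TATAAA, 9.56% the C/EBP motif and 6.02% the E-box. Neither stretch held the C/EBP motif or the E-box as spelled. Of the 10 genes of the set, 6 had an entry in the promoter table (Cebpa, Cebpb, Zfp423, Plin2, Cd36 and Cfd). Among these entries the only other match was a C/EBP motif ahead of 1 of the 2 listed starts of Zfp423, at -131.

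No gene of the set passed the test for Dicer loss, and the genes fell into patterns that differed by clone. Plin2 and Dgat2, the genes of droplet coating and of the last step of triglyceride synthesis, were higher in all 4 null clones than in both carrying clones. Cebpa and Lpl were lower than the parent in clones 6.8, 6.9 and 12.2 and higher in clone 12.4. Fabp4 was lower in both null clones of line 12. Cd36 was dim everywhere. The test was limma's moderated linear model over all 18997 genes, with the parental line as a block, two-sided, with Benjamini-Hochberg adjustment and a threshold of 0.05. It called 0 of the 9 genes. Of all genes it called 0.59%, with 0.163% higher and 0.426% lower. At an unadjusted p under 0.05 in limma it picked 1 of the 9, Plin2, beside 5.82% of all genes on the higher side and 7.9% on the lower side. The median fitted change of the 9 genes was -0.05, and that of all genes was -0.02.

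**Figure D1:**
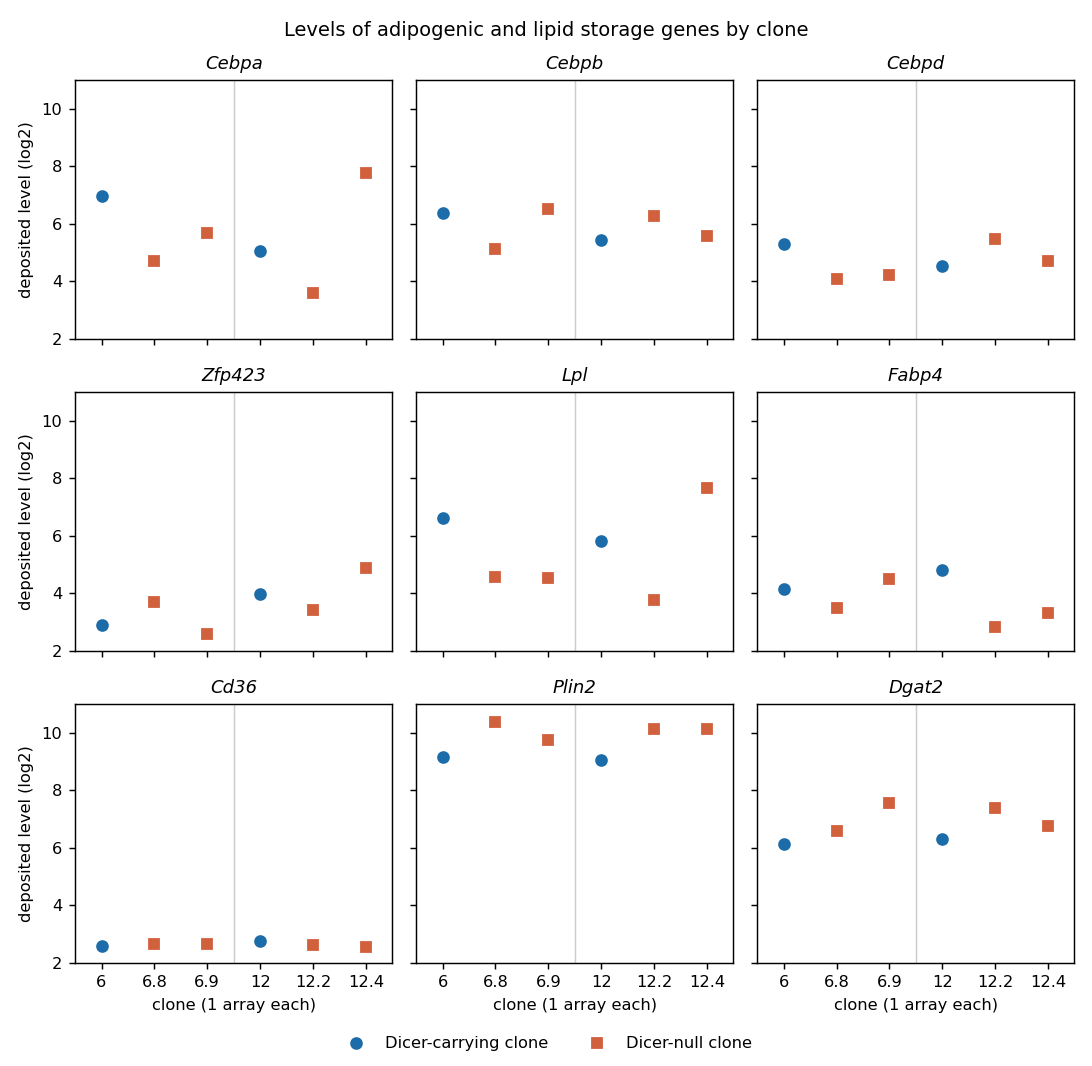
Log2 level (vertical axis, deposited value) of the 9 measured genes on each of the 6 arrays, 1 point per clone, with Dicer-carrying clones as circles and Dicer-null clones as squares, line 6 to the left of the grey line and line 12 to the right. Plin2 and Dgat2 have all 4 null clones above both carrying clones, Cebpa and Lpl are highest in clone 12.4 and lowest in clone 12.2, and Cd36 stays between 2.57 and 2.77.

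Plin2 encodes perilipin 2, a protein that coats lipid droplets. Its level was 9.15 in parent 6 against 10.36 in 6.8 and 9.76 in 6.9, and 9.05 in parent 12 against 10.14 in 12.2 and 10.11 in 12.4. The groups did not overlap, and the carrying clones were close to each other. Such a difference can lie in the share of cells that express the gene or in the RNA per cell, which cannot be told apart in bulk RNA. Clone 6.8 exceeded its parent by 1.22 and clone 6.9 by 0.61, and the excess was 1.09 in clone 12.2 and 1.06 in 12.4. The fitted change was 0.99 ± 0.19 (SE; 95% interval 0.49 to 1.5; limma, adjusted p = 0.128), which is 1.99-fold. Over all alternative fits its adjusted p lay between 0.0807, without the line block, and 0.621, without clone 12. Without clone 6.9, the array with the conflicting label, the change was 1.14.

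Dgat2 encodes the acyltransferase that completes triglyceride. Its level was 6.14 in parent 6 against 6.57 in 6.8 and 7.54 in 6.9, and 6.29 in parent 12 against 7.37 in 12.2 and 6.76 in 12.4. All null values again lay above both carrying values, and in each line 1 sibling stood well above the other. Clone 6.8 exceeded its parent by 0.43 and clone 6.9 by 1.40, and clone 12.2 by 1.08 and 12.4 by 0.47. The fitted change was 0.84 ± 0.33 (95% interval -0.02 to 1.71; limma, adjusted p = 0.377), and it was 0.63 without clone 6.9. Of the 9 genes, 2 had no overlap between the groups with the null clones higher, and 0 with the null clones lower, where all genes gave 9.44% and 13.9%. Likewise 2 of the 9 were higher and 0 lower than their own parent in all 4 null clones, where all genes gave 13.1% and 18.9%.

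Among the C/EBP genes, Cebpa had levels of 6.94 in parent 6 against 4.69 in 6.8 and 5.66 in 6.9, and 5.05 in parent 12 against 3.58 in 12.2 and 7.76 in 12.4. Its highest and its lowest value both came from null clones of line 12, so that the null group spanned the carrying group on both sides. Against the parent Cebpa differed by -2.26 in clone 6.8, -1.28 in 6.9 and -1.47 in 12.2, and by 2.70 in 12.4, the last a 6.51-fold higher level. Siblings 12.2 and 12.4 thus stood 4.18 units or 18.1-fold apart. Of all genes, 0.5% were higher by over 3 units in clone 12.4 than in 12.2. The parents also differed, with clone 12 at a 3.71-fold lower level than clone 6. The fitted change was -0.58 ± 1.32 (95% interval -4.02 to 2.87; limma, adjusted p = 0.944). Without clone 12.4 it was -1.64 (limma, adjusted p = 0.184), and without clone 12.2 it was 0.15.

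Cebpb and Cebpd, the early factors of the cascade, varied less. Cebpb read 6.38 in parent 6 against 5.13 in 6.8 and 6.5 in 6.9, and 5.42 in parent 12 against 6.27 in 12.2 and 5.55 in 12.4. The null and carrying values were intermixed, and siblings 6.8 and 6.9 lay on opposite sides of their parent. The fitted change of Cebpb was -0.03 ± 0.50 (95% interval -1.34 to 1.28). It was 0.04 without clone 12.4, 0.34 without clone 6.8 and 0.49 without clone 6.

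Cebpd read 5.31 in parent 6 against 4.08 in 6.8 and 4.23 in 6.9, and 4.52 in parent 12 against 5.45 in 12.2 and 4.70 in 12.4. Both line 6 null clones were below their parent, by 1.23 and 1.08, and both line 12 null clones were above theirs, by 0.94 and 0.18. The mean change was -1.15 in line 6 and 0.56 in line 12. In the interaction test of limma, which has 1 carrying array per line, the lines differed by 1.71 ± 0.53 (95% interval 0.19 to 3.24; adjusted p = 0.9997). It called 0% of all genes, and 3% had an unadjusted p under 0.05. The fitted change over both lines was -0.30 ± 0.46 (limma, adjusted p = 0.902). Without clone 6 it was 0.56, which is the mean change of line 12 again.

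Zfp423, a zinc finger factor that commits cells to the fat lineage, was dim on most arrays. It read 2.91 in parent 6 against 3.70 in 6.8 and 2.57 in 6.9, and 3.98 in parent 12 against 3.40 in 12.2 and 4.88 in 12.4. Siblings lay on opposite sides of the parent in both lines. The fitted change was 0.19 ± 0.53 (95% interval -1.18 to 1.57), and -0.05 without clone 6.8 and -0.12 without clone 12.4.

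Lpl encodes lipoprotein lipase, which frees fatty acids from circulating triglyceride. Its brighter cluster read 6.63 in parent 6 against 4.57 in 6.8 and 4.52 in 6.9, and 5.8 in parent 12 against 3.78 in 12.2 and 7.67 in 12.4. Clone 12.4 was above both carrying clones, and the other null clones were below them. The changes from the parent were close to each other in the 3 lower clones, at -2.06, -2.11 and -2.02 in 6.8, 6.9 and 12.2, which is 4.06 to 4.31-fold lower. In clone 12.4 the change was 1.87, or 3.65-fold higher. Siblings 12.2 and 12.4 were 14.8-fold apart. The fitted change was -1.08 ± 1.19 (95% interval -4.17 to 2.01; limma, adjusted p = 0.832). Without clone 12.4 it was -2.06 (limma, adjusted p = 0.0609), still above the threshold. Without clone 12.2 it was -0.39, without clone 6 it was -0.08, and without clone 12, -2.08. The dimmer cluster of Lpl read 2.40 to 3.19 on the 6 arrays and also had its highest value in clone 12.4, and with the mean of both clusters the fitted change was -0.65.

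**Figure D2:**
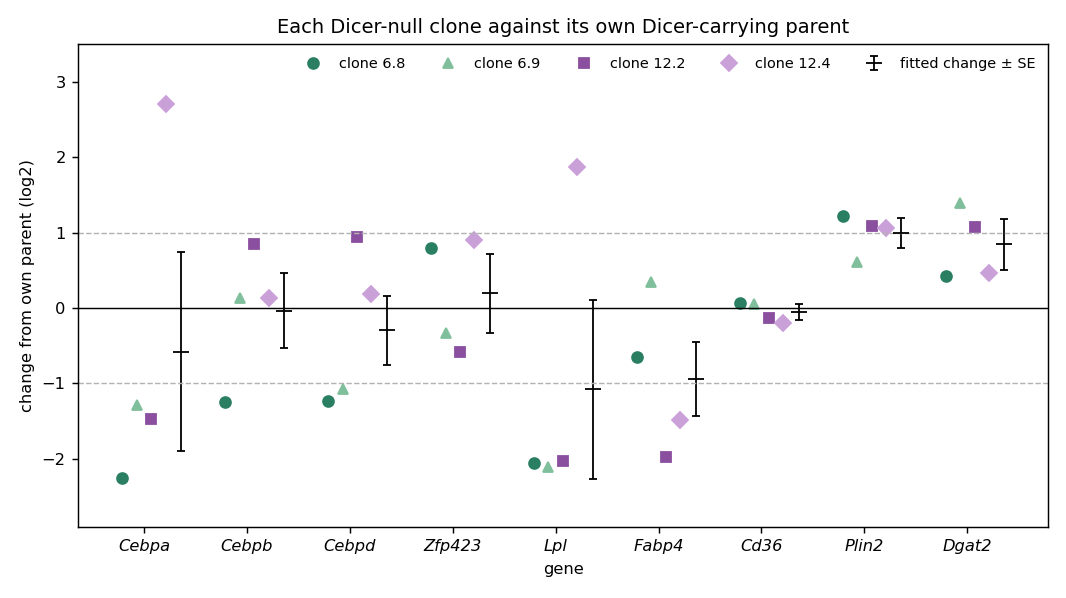
Change of each gene (horizontal axis) in each Dicer-null clone from its own Dicer-carrying parent, in log2 units on the vertical axis, 1 marker per clone, with the fitted change ± SE over both lines in black and dashed lines at 1 unit. Cebpa and Lpl lie below -1 in 3 clones and above 1 in clone 12.4, while all 4 markers of Plin2 and of Dgat2 lie above 0.

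Fabp4, which carries fatty acids inside fat cells and macrophages, read 4.15 in parent 6 against 3.5 in 6.8 and 4.5 in 6.9, and 4.79 in parent 12 against 2.81 in 12.2 and 3.30 in 12.4. It was above its parent in clone 6.9 alone, by 0.35, and below it by 0.65 in clone 6.8. In clones 12.2 and 12.4 it was lower by 3.95-fold and 2.81-fold. Both levels are dim, so the sizes of these folds are uncertain. Fabp4 thus parted from Lpl in clone 12.4, where Lpl was highest. Its fitted change was -0.94 ± 0.49 (95% interval -2.21 to 0.33; limma, adjusted p = 0.522), and it was -0.15 without clone 12 and -1.73 without clone 6. These are also the mean changes, -0.15 in line 6 and -1.73 in line 12, because a line without its parent drops out of the fitted change. The lines differed by -1.58 ± 0.74 (95% interval -3.73 to 0.56; limma interaction, adjusted p = 0.9997). Cd36, a fatty acid receptor, read 2.59 and 2.77 in clones 6 and 12 and 2.57 to 2.66 in the null clones. These are dim levels, with a fitted change of -0.05 ± 0.10, and 0.06 without clone 12.

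By count, clone 6.8 had 1 of the 9 genes more than 1 unit above its parent (Plin2) and 4 more than 1 unit below (Cebpa, Cebpb, Cebpd and Lpl), where all genes gave 3.04% and 4.14%. Clone 6.9 had 1 above (Dgat2) and 3 below (Cebpa, Cebpd and Lpl), beside 4.58% and 6.97%. Clone 12.2 had 2 above (Plin2 and Dgat2) and 3 below (Cebpa, Fabp4 and Lpl), beside 5.14% in either direction. Clone 12.4 had 3 above (Cebpa, Lpl and Plin2) and 1 below (Fabp4), beside 5.14% and 3.52%. These counts have no replicate check, since each clone is 1 array, and siblings share the parental value. In 5 of the 9 genes the siblings of at least 1 line lay on opposite sides of their parent. The share of all genes that do so was not counted, so this is not read as a trait of these genes. Between siblings, 2 genes were over 1 unit higher in clone 6.9 than in 6.8 (Cebpb and Fabp4) and 1 was lower (Zfp423), where all genes gave 2.2% and 3.87%. Clone 12.4 was over 1 unit above 12.2 in 3 genes (Cebpa, Lpl and Zfp423) and below it in 0, beside 4.83% and 3.23%. Between the parents, Cebpa was over 1 unit higher in clone 6 than in 12 and Zfp423 over 1 unit lower, beside 1.84% and 0.869%. Cebpa and Lpl were the 2 that differed by more than 1 unit from the parent in both directions. Both were lower by over 1 unit in clone 12.2 and higher by over 1 unit in 12.4 than in clone 12, as were 0.279% of all genes.

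Cebpa and Lpl had the widest ranges of the set, 4.18 and 3.89 units, and followed each other, with Pearson's r of 0.91 and Spearman's rho of 0.83 over the 6 arrays. All correlations here describe 6 arrays that include siblings with a shared parent, and carry no test. Without the 2 arrays farthest from the median of Cebpa (12.2 and 12.4), r was 0.70, and without those farthest from the median of Lpl (6 and 12.4) it was 0.57. Among 5289 other named genes with a range over 1 unit, the 3 most like Cebpa were Sfrp1, which encodes a secreted inhibitor of Wnt signalling (r = 0.99), Sqor, which encodes the mitochondrial sulfide oxidase (0.98), and Tshz1, which encodes a zinc finger factor (0.98). Without clones 12.2 and 12.4 they were 0.99, 0.94 and 0.95. Sfrp1 read 8.26 in parent 6 against 4.43 in 6.8 and 5.63 in 6.9, and 5.08 in parent 12 against 3.12 in 12.2 and 10.47 in 12.4, the same order as Cebpa.

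The 3 genes most like Lpl were Ebf1 (r = 0.99), Adam12, which encodes a membrane protease (0.98), and Dgat1 (0.98). Ebf1 is one of the regulators that act ahead of the fat cell cascade, and Dgat1 is the other enzyme, besides Dgat2, that completes triglyceride. Without clones 6 and 12.4, the arrays farthest from the median of Lpl, r was 0.98, 0.91 and 0.94. Ebf1 read 7.60 in parent 6 against 6.30 in 6.8 and 6.06 in 6.9, and 6.78 in parent 12 against 5.64 in 12.2 and 7.89 in 12.4. Dgat1 read 7.15 in parent 6 against 6.54 in 6.8 and 6.53 in 6.9, and 6.74 in parent 12 against 6.20 in 12.2 and 7.74 in 12.4. So Dgat1 was lowest in clone 12.2 and highest in 12.4, whereas Dgat2 was higher in 12.2 than in 12.4.

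Adiponectin and PPAR-gamma were looked at after their values were seen, as the late genes of the cascade. Adipoq read 5.12 in parent 6 against 2.91 in 6.8 and 2.64 in 6.9, and 3.28 in parent 12 against 2.84 in 12.2 and 5.82 in 12.4. Clones 6 and 12.4 alone were above 4, and those are also the 2 clones with the highest Cebpa and Lpl. With Cebpa its r was 0.88 and its rho 0.66, and with Lpl 0.94 and 0.94. Without the 2 farthest arrays of each, r was 0.84 and 0.77. In the other 4 clones Adipoq was dim. Pparg read 6.95 in parent 6 against 7.33 in 6.8 and 7.44 in 6.9, and 7.21 in parent 12 against 5.79 in 12.2 and 7.98 in 12.4, with a fitted change of 0.06 ± 0.64. It was lowest in clone 12.2 and highest in 12.4, yet in line 6 it was slightly above the parent in both null clones, where Cebpa and Lpl were below. Osteoblast markers also had their lowest mean level, 5.12, in clone 12.2. The median change there was -5.23, against -2.17 in clone 6.8, -2.35 in 6.9 and -2.84 in 12.4. These markers were not alike. Sp7 read 3.95 in 12.2 against 7.13 in 12.4, Ibsp 3.08 against 8.34 and Alpl 5.99 against 11.52. Dmp1 read 2.86 against 3.37 and Phex 3.43 against 3.46, while Col1a1 was higher in 12.2, at 11.40 against 10.48. Of the stromal markers, Cxcl12 read 9.56 in parent 6 against 9.86 in 6.8 and 10.58 in 6.9, and 8.29 in parent 12 against 7.63 in 12.2 and 11.47 in 12.4, and so was also lowest in 12.2 and highest in 12.4. Between these siblings, Eng, Pdgfra, Pdgfrb, Itgb1 and Lepr were likewise higher in 12.4. The remaining stromal markers were higher in 12.2. Vcam1 read 8.01 in 12.2 against 7.69 in 12.4, Nt5e 4.24 against 3.17, Cd44 7.55 against 6.76 and Thy1 2.67 against 2.57. The part of these markers in the pattern of Cebpa and Lpl was not tested.

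**Figure D3:**
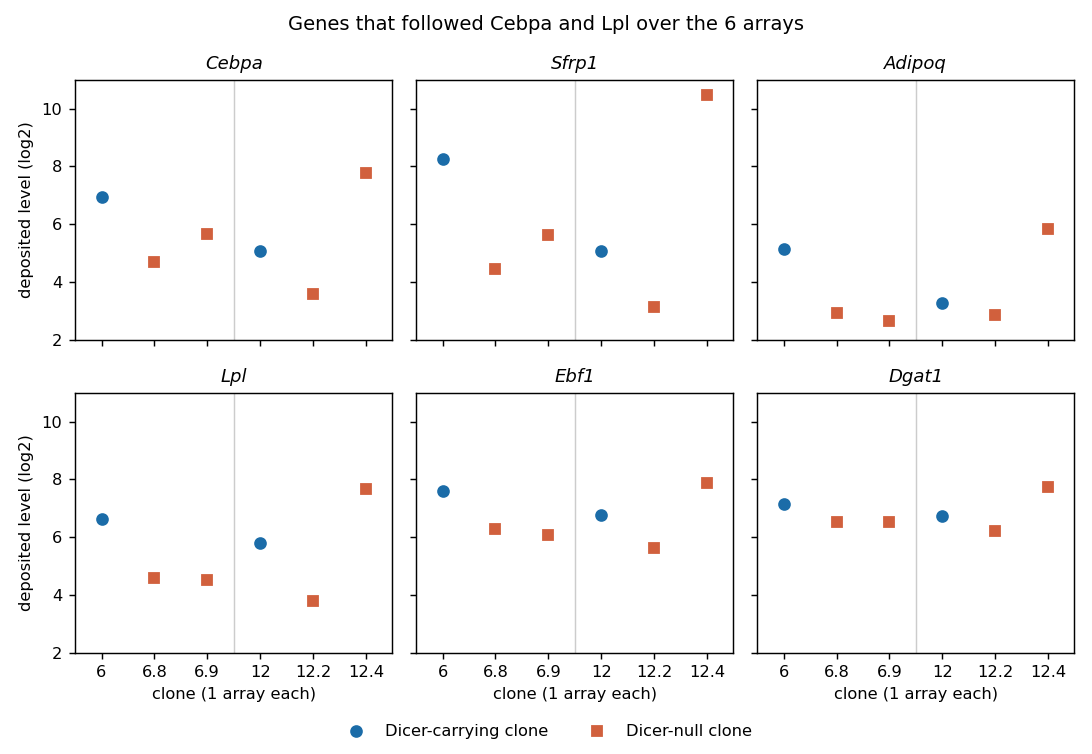
Log2 level (vertical axis, deposited value) by clone of Cebpa and Lpl with genes of similar profile, circles for Dicer-carrying and squares for Dicer-null clones. All 6 genes are highest in clone 12.4, and all but Adipoq are lowest in clone 12.2.

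Other genes of the pathway were read from lists chosen by function. Of 16 regulators that favour fat cell formation and 14 that restrain it, 0 passed in limma, with median changes of -0.09 and 0.00. The largest change among the first was that of Klf5, an early activator, at 1.06 ± 0.72, with 6.03 in clone 12.2 and 3.56 to 4.81 in the other null clones. It was 0.53 without clone 12.2, 1.59 without clone 12.4 and 0.59 with the mean of its 2 clusters. Among the second it was that of Zfp521, a zinc finger gene whose product opposes Zfp423. Zfp521 read 5.51 and 3.51 in clones 6 and 12 and 2.38 to 2.59 in the null clones, a change of -2.03 ± 0.47 (limma, adjusted p = 0.169). The null values were all below both carrying values and dim, and the mean change was -3.03 in line 6 and -1.03 in line 12, the latter also being the value without clone 6.

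Of 11 genes of lipid uptake and fatty acid handling 1 passed the threshold as lower and 0 as higher, where 0.426% and 0.163% of all genes did. Vldlr, a lipoprotein receptor that works with lipoprotein lipase, read 5.0 and 5.66 in clones 6 and 12 and 2.80 to 3.01 in the null clones. That change was -2.41 ± 0.19 (limma, adjusted p = 0.0305), and it missed the threshold at 0.0737 with siblings averaged. It also missed it without any 1 array, at 0.0815 to 0.185. Angptl4 and Acsl4 of the same list were picked with their values known. Angptl4, an inhibitor of lipoprotein lipase, read 5.53 in parent 6 against 7.43 in 6.8 and 8.88 in 6.9, and 5.57 in parent 12 against 7.81 in 12.2 and 6.40 in 12.4. Its fitted change was 2.08 ± 0.62 (limma, adjusted p = 0.258). Acsl4, which activates long fatty acids, read 5.59 and 5.52 in the carrying clones and 7.18 to 8.29 in the null clones, a change of 1.95 ± 0.33 (limma, adjusted p = 0.0999). The list median was 0.16.

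Triglyceride synthesis genes had 0 of 10 past the threshold and a median of -0.18, and the largest change was that of the glycerol-3-phosphate acyltransferase gene Gpat3. It read 3.61 and 3.90 in clones 6 and 12 and 4.55 to 5.27 in the null clones, a change of 1.24 ± 0.24 (limma, adjusted p = 0.129). Droplet coat and assembly genes other than Plin2 had 0 of 9 past it and a median of 0.00. Hilpda, an inhibitor of lipolysis found on droplets, had the largest change at -0.67 ± 0.29. The droplet genes of mature fat cells were not alike. Plin1 and Cidec stayed at or below 3.22 on every array, whereas Plin4 read 5.45 in parent 6 against 5.78 in 6.8 and 6.28 in 6.9, and 5.59 in parent 12 against 3.80 in 12.2 and 5.82 in 12.4. Plin4 was thus above its parent in 3 null clones and 1.79 units below it in clone 12.2, with a fitted change of -0.10 ± 0.67. Plin3, the coat gene that most cells express, read 7.94 to 8.68, with a fitted change of 0.19 ± 0.13.

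Lipolysis genes had 0 of 4 past the threshold and a median of -0.33, with Mgll, the monoglyceride lipase gene, at -1.14 ± 0.36. Mgll read 4.65 and 2.97 in clones 6 and 12 and 2.53 to 2.92 in the null clones. Its change was -0.39 without clone 6 and -1.89 without clone 12. Clone 12 was already dim, which limits how far Mgll could read lower in line 12. Fatty acid synthesis genes had 0 of 9 past the threshold and a median of 0.03. Scd1, a desaturase gene, had the largest change there, at -1.5 ± 0.52, with 10.36 and 10.59 in clones 6 and 12 and 7.85 to 10.06 in the null clones. Of 9 measured genes for secreted and insulin response proteins of fat cells 1 passed the threshold as lower and 0 as higher, beside the same 0.426% and 0.163% of all genes, with a median of -0.09. Rbp4, the retinol carrier that fat and liver release, read 6.33 and 6.28 in clones 6 and 12 and 2.47 to 2.75 in the null clones, a change of -3.72 ± 0.13 (limma, adjusted p = 0.00489). It missed the threshold without clone 6, 12 or 12.4, at 0.145, 0.119 and 0.0545. Rbp4 was dim in all 4 null clones, clone 12.4 included, and so did not follow Cebpa and Lpl there. Leptin and resistin, Lep and Retn, stayed at or below 3.36 on every array. Among the other cell type lists, Phex, an osteoblast gene, fell by 5.25 (limma, adjusted p = 0.00476). Phex missed the threshold without clone 6, 12 or 12.4 (limma, adjusted p = 0.0545 for the last). Of the other lists 0 of 10 stromal, 0 of 8 macrophage and 0 of 8 endothelial markers passed. The largest changes of those lists were Vcam1 at 3.16 ± 0.37, Cd68 at 0.27 ± 0.22 and Egfl7 at -0.25 ± 0.14. Cd68 was 0.0023 without clone 6 and 0.55 without clone 12, and Egfl7 was -0.16 without clone 12.4. Medians were -2.93, -0.09, -0.03 and -0.02 for the osteoblast, stromal, macrophage and endothelial lists.

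**Figure D4:**
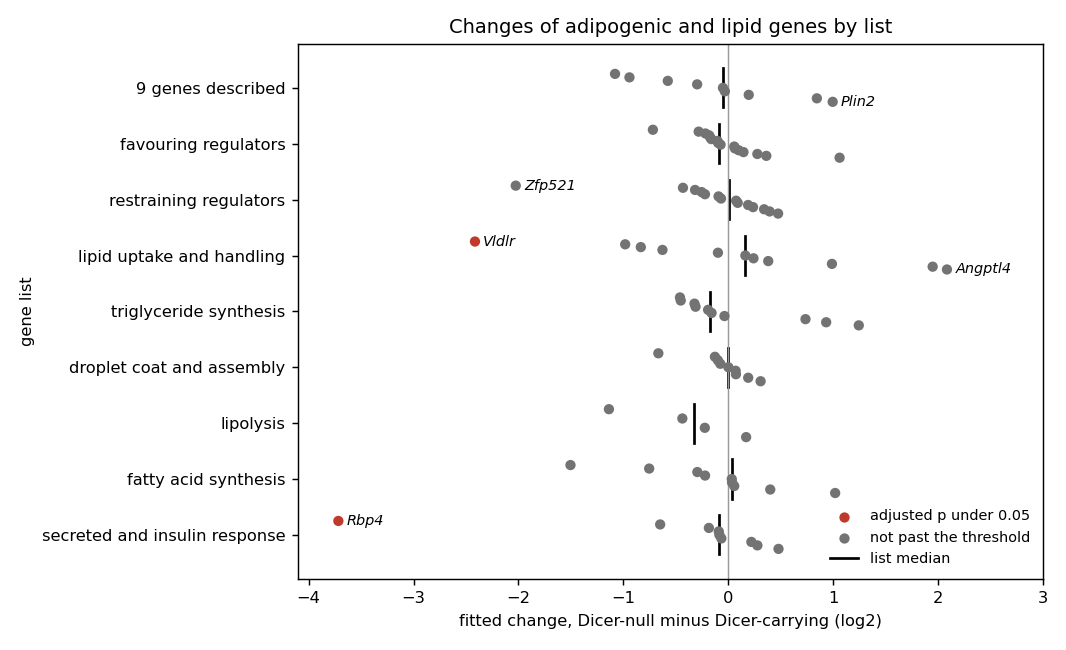
Fitted change with Dicer loss (horizontal axis, log2 units, Dicer-null minus Dicer-carrying) of each gene in the set and in 8 further lists of adipogenic and lipid genes, 1 point per gene, with genes past the threshold of 0.05 in red and the list median as a black bar. Only Vldlr and Rbp4 pass, both lower, and the medians lie between -0.33 and 0.16.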

How the data were processed

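RNA of 6 clones was hybridised to Affymetrix exon arrays, 1 per clone. The deposited values are log2 levels of 44343 transcript clusters, and the submitters' processing notes list Partek 6.5 and RMA without saying what each did. The build was not given in the sources used. Normalisation between arrays hides a shift in total RNA. The number of arrays limits the precision.

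Clusters were named from the platform annotation, brought up to date through Entrez identifiers in RefSeq's GRCm38.p6 genes (22485 of 22781 clusters with 1 gene matched). The 2085 clusters with several genes were left out, and so Klf9, Bscl2 and Lipe of the lists below. The cluster with the highest mean stood for each gene.

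Dicer loss was tested with limma 3.58.1 in R 4.3.3, the parental line being a fixed block, on 3 residual degrees of freedom, two-sided, over 18997 genes. The line is shared by design. Across genes, the difference between lines in the null clones correlated at 0.11 with that in the carrying clones. The response of the lines was compared by an interaction contrast on 2 residual degrees of freedom. The fit was tested on simulated data. The alternatives were no block, a random block, averaged siblings, dim genes left out (mean under 4), quantile normalisation, centring, the mean of all clusters, trend and robust moderation, and each array left out.

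The genes, lists and tests were chosen with earlier results of these data known. Named genes were the members, Dicer1, up to 3 genes per list past the threshold or else the largest change, and for the 2 members of widest range the 3 most correlated genes; others are marked as chosen after their values were seen. Pdgfrb, Itgb1, Thy1, Lepr, Cd14, Plin1, Plin3, Plin4, Cidec, Cxcl12, Lep and Retn were chosen so too. Eng, Pdgfra, Nt5e and Cd44 were added to complete the stromal list beside Cxcl12. Sp7, Ibsp, Alpl, Dmp1 and Col1a1 were added to complete the osteoblast list beside Phex. Upstream sequences came from RefSeq.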

Additional observations from a re-analysis of the deposited data

Results flagged for a closer look

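Cebpd was below its parent in both null clones of line 6 and above it in both of line 12, a difference of 1.71 between the responses that had an adjusted p of 0.9997 in the interaction test of limma. Cd36 was above its parent in both null clones of line 6 and below it in both of line 12, a difference of -0.23 at levels that stayed at or below 2.77, also with an adjusted p of 0.9997 in limma. Dixon's test on the levels of the 4 null clones, at a critical value of 0.829, set no clone apart in any of the 22 named genes examined. With 4 values the test can miss a clone that stands apart. It also did not set each clone against its own parent. It therefore does not cover changes such as those of Lpl, at -2.06, -2.11 and -2.02 in clones 6.8, 6.9 and 12.2 and 1.87 in 12.4.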

How the results depend on the processing

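None of the 9 genes passed in limma under any of the 14 alternatives to the main fit; the dim-gene filter removed Zfp423, Fabp4 and Cd36 and could not be read for them. Plin2, Dgat2, Lpl and Fabp4 kept their direction in every alternative that measured them. With an array left out Plin2 ranged from 0.88 to 1.14, Dgat2 from 0.63 to 1.04, Lpl from -2.08 to -0.08 and Fabp4 from -1.73 to -0.15. Without clone 6 the change of Cebpa was 0.62, of Cebpb 0.49 and of Cebpd 0.56, each opposite in sign to the main fit. These are the mean changes of line 12, because a line without its parental array drops out of the fitted change. For every gene, leaving out a parental array thus gives the change of the other line alone. Cebpa was 0.15 without clone 12.2. Cebpb was 0.34 without clone 6.8, 0.04 without 12.4 and 0.048 with the arrays centred. Zfp423 was -0.05 without 6.8 and -0.12 without 12.4. Cd36 was 0.063 without clone 12 and 0.030 with the arrays centred, and Dicer1 was 0.067 without clone 12. With 1 array left out, Cebpa ranged from -1.77 to 0.62, Cebpb from -0.56 to 0.49, Cebpd from -1.15 to 0.56, Zfp423 from -0.12 to 0.52, Cd36 from -0.17 to 0.063 and Dicer1 from -0.27 to 0.067. Centring adds the same amount to the change of every gene, so a change of sign there says nothing about Cebpb or Cd36. None of the 9 line differences changed sign or passed under 5 alternatives. Over all genes 112 passed in limma, 220 with no replicate block (the parental line), 233 with trend and robust moderation, 15 with siblings averaged (1 residual degree of freedom), and 0 to 17 with 1 array left out. Without a parental array the counts were 0 in limma, where an unadjusted p under 0.05 was met by 1654 genes without clone 6 and 1493 without clone 12. Without the block none of the 22 genes examined gained or lost its call, these being the measured members, Dicer1 and the genes named by rule from the lists. The genes most correlated with Cebpa and Lpl, and the other genes named, were not examined under the alternatives. Vcam1 passed with dim genes left out and with trend and robust moderation. The cause of these shifts was not tested. Leaving out an array also lowered the residual degrees of freedom from 3 to 2. The simulated fit is not quoted, and with 1 array per clone a difference between siblings has no error of its own.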
